A study of Homo sapiens with 12 samples.

Results

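A group of 123 genes was raised strongly by forced ZIC2 in H1 cells that lacked ZNF263. H1 (WA01), a long-established human embryonic stem cell line, can renew itself and form all germ layers. Genes were chosen by their levels in the knockout cells with and without ZIC2: a gene entered the group when its mean reached 1 CPM (counts scaled to the library's total) in knockout cells that overexpressed ZIC2, when that mean was at least 2 times the mean of the knockout cells, and when the lowest library with ZIC2 lay above the highest knockout library. These conditions were met by 137 of the 27130 genes in the table, or by 0.99% of the 13832 genes with at least 1 CPM in the cells with ZIC2. ZIC2 itself and 13 other genes were set aside by symbol, among them ephrins, integrins and other families. The 123 genes left were divided into 51 whose mean in wild type cells was under 1 CPM and 72 at or above it. The values that chose the genes came from the knockout cells with and without ZIC2, so in that contrast the group is described with no test.

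Poly(A) RNA was profiled in 12 libraries, 3 in each of 4 groups of H1 cells. The groups were a homozygous ZNF263 knockout that overexpressed ZIC2 (library names H1-2-10-ZIC2), the homozygous ZNF263 knockout (H1-2-10-vec), cells that overexpressed ZNF263 (ZNF263 OE) and wild type cells (WT). The ZIC2 group therefore carries the ZNF263 knockout too, and neither its library names nor those of ZNF263 OE hold the tag vec found in the knockout and wild type names. The labels give no promoter or construct for either overexpressed gene, no time after its introduction, and no statement of how many clones the knockout stands for. Totals ran from 17175183 to 21804410 counts per library, apart from knockout replicate 1 with 43464609.

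ZIC2 is a zinc finger transcription factor of the ZIC family, whose DNA-binding fingers resemble those of the GLI factors of the hedgehog pathway. It acts in the patterning of the forebrain, the neural tube and the neural crest, and in retinal axons it sets which fibres stay on their own side of the brain. In human pluripotent cells it is expressed before differentiation, so the cells studied here had their own ZIC2 before more was added. ZIC2 had 2190, 1998 and 1866 CPM in the knockout libraries with ZIC2, against 155, 156 and 150 CPM in the knockout libraries, a 13.1-fold difference of means. The wild type libraries held 214, 211 and 208 CPM. ZNF263 had 35.3, 29.8 and 30.6 CPM in the libraries with ZIC2, 30.6, 30.5 and 30.9 CPM in the knockout libraries, and 41.0, 39.3 and 38.7 CPM in wild type. The knockout libraries thus still held ZNF263 transcripts, and these counts do not show what the deletion does to the protein. POU5F1, SOX2 and NANOG, which mark human embryonic stem cells, averaged 78.7, 365 and 73.9 CPM with ZIC2, and 81.3, 389 and 84.7 CPM in the knockout.

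RefSeq promoter sequences (GRCh38.p14, from 250 bases before to 50 bases after a gene's start) were at hand for 82 of the 123 genes. They were searched on both strands for CAGCAGG and CAGCGGG, the letters used here for the core of ZIC binding sites. Either core occurred in 18 of the 82 promoters (22%), against 17.1% of all 27305 promoters in the table. CAGCAGG was in 9 (11%), against 10.3% of all, and CAGCGGG was in 10 (12.2%), against 7.62% of all. The GLI letters TGGGTGGTC occurred in none of the 82 and in 0.249% of all promoters. GGGAGGAG, letters of the ZNF263 motif, occurred in 18 of the 82 (22%), against 10.4% of all. The promoters of the group also had a higher GC content, with a median of 64.7% against 58.3% over all promoters, and its part in these shares was not tested. Promoters of 6 genes follow, each 5' to 3' on the gene's strand with any ZIC core in capitals. ADGRF5 (chr6:46954890-46955189) and PTPN7 (chr1:202159405-202159704) are shown because they had the largest folds among the genes with a sequence at hand, SLC16A3 (chr17:82228185-82228484), ANO1 (chr11:69985657-69985956) and UNC5C (chr4:95548924-95549223) because they are described below and hold a core, and CHGA (chr14:92922900-92923199) because it had the highest level.
ADGRF5: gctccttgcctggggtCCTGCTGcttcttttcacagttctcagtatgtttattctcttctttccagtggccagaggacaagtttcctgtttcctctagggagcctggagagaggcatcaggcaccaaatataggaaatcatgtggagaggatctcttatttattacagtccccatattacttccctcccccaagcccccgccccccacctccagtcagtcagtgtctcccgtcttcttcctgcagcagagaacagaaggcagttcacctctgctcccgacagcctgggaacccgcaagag
PTPN7: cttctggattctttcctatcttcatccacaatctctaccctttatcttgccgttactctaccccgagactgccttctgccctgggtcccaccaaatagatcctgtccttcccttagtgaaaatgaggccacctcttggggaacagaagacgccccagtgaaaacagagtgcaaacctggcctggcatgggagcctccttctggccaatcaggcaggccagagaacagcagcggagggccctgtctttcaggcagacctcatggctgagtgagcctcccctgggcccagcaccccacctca
SLC16A3: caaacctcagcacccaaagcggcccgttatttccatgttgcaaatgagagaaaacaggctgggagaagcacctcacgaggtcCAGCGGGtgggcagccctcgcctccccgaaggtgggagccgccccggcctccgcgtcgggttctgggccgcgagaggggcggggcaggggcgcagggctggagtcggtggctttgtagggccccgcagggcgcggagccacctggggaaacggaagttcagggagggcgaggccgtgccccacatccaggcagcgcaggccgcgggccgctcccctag
ANO1: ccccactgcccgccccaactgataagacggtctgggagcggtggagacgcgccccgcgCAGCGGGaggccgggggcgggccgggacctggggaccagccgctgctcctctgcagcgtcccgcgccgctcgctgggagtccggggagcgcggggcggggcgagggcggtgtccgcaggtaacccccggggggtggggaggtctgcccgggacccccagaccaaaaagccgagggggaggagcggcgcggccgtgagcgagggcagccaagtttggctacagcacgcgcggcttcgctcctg
UNC5C: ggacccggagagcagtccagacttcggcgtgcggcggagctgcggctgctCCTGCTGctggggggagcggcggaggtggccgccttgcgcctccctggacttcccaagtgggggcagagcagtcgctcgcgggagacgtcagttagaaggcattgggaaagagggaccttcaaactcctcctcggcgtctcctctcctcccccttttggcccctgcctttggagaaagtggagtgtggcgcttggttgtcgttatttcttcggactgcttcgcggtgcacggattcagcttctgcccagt
CHGA: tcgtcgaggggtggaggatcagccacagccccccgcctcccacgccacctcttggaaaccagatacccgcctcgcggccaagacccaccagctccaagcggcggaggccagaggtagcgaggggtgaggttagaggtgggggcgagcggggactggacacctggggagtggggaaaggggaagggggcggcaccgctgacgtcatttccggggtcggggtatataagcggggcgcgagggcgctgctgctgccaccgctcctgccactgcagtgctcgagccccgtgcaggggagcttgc
Counted from the gene's start, the core lay at position -234 in ADGRF5, -168 in SLC16A3, -192 in ANO1 and -200 in UNC5C, and it is read on the opposite strand in ADGRF5 and UNC5C. The PTPN7 and CHGA windows held neither core, so large folds occurred with these letters (ADGRF5) and without them (PTPN7).

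Folds of mean CPM, knockout with ZIC2 over knockout, ran from 2.00 to 38.2 with a median of 2.55. They reached 3 in 49 genes and 5 in 18 genes. Most of the group was expressed at a low level even with ZIC2: the median was 2.87 CPM, with a range of 1.01 to 113 CPM, and 11 genes reached 10 CPM. Among the 13089 genes with at least 1 CPM there and no symbol of the kinds set aside, the median was 27.1 CPM. The low counts came with a wider spread between replicates, with a median coefficient of variation of 13.4% in the cells with ZIC2 against 5.34% for those 13089 genes. The 51 genes that were low in wild type had a median fold of 3.57 at a median of 1.68 CPM with ZIC2, and none passed 5.36 CPM. The 72 genes at or above 1 CPM in wild type had a median fold of 2.32 at a median of 4.63 CPM. At the edge of the rule, TMC8 (2.00-fold) and UNC5C (2.01-fold) lay just inside, and IGDCC4 (1.997-fold) and ATP12A (1.995-fold) just outside.

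**Figure D1:**
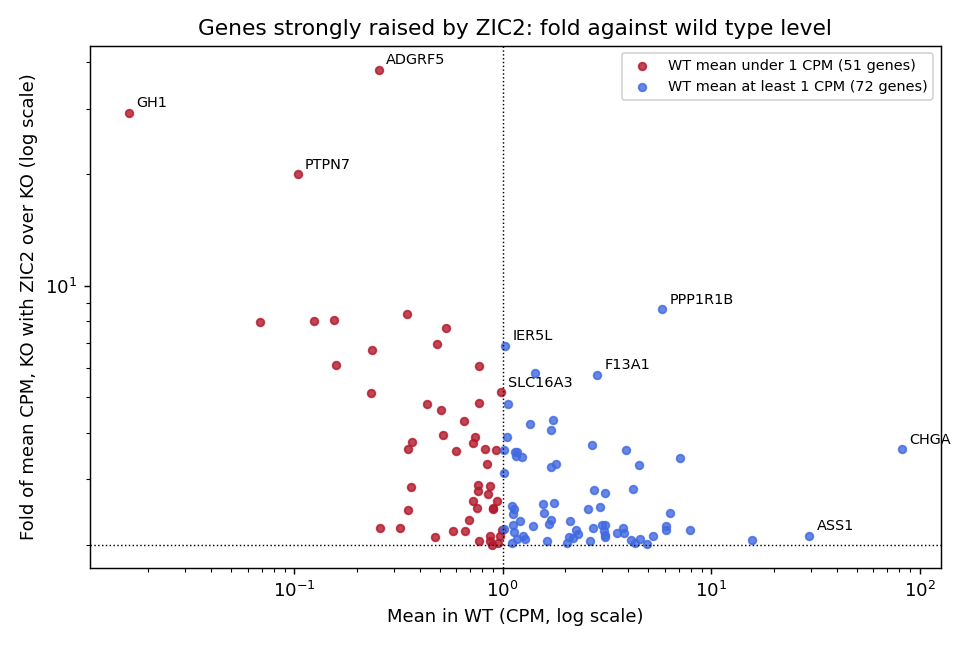
Fold of mean CPM, knockout with ZIC2 over knockout, against the mean in wild type, both on log scales, with 1 point per gene and dotted lines at 2-fold and 1 CPM. The folds above 10 all belong to genes under 1 CPM in wild type (ADGRF5, GH1 and PTPN7), and CHGA stands alone at the high end of wild type levels.

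When the same rule was applied without replicate 1 of both groups, it chose 134 genes, of which 89 (66.4%) were at least 2-fold higher in the left-out pair of libraries, and 125 were higher at all. Without replicate 2 it chose 139 genes, of which 92 (66.2%) reached 2-fold in the left-out pair and 136 were higher. Without replicate 3 it chose 141 genes, of which 92 (65.2%) reached 2-fold and 140 were higher. The median fold in the left-out libraries was 2.43, 2.37 and 2.32 for replicates 1, 2 and 3. Each left-out pair is 1 library against 1, so these are values with no test.

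The largest folds belonged to genes with very few counts outside the ZIC2 cells. ADGRF5, an adhesion G protein-coupled receptor best known from the lung, had 5.63, 3.83 and 3.72 CPM in the libraries with ZIC2, 0.0460, 0.207 and 0.0923 CPM in the knockout, and 0.408, 0.162 and 0.193 CPM in wild type. All 3 libraries with ZIC2 stood far above the other 9, whose highest value was in wild type. In counts this was 247 against 8, a ratio of 47.0 after scaling for depth (95% interval 23.5 to 110.0, exact and for counting error only). The level near 0 in the knockout makes the size of this ratio imprecise. PTPN7, a tyrosine phosphatase of blood cells that acts on MAP kinases, had 2.34, 2.51 and 1.92 CPM with ZIC2 and 0.138, 0.155 and 0.0462 CPM in the knockout. Its 126 counts against 10 gave a ratio of 19.2 (10.1 to 40.9).

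GH1, which encodes pituitary growth hormone, had 2.54, 2.90 and 2.62 CPM with ZIC2, 0.0230, 0.207 and 0.0462 CPM in the knockout, and 0, 0 and 0.0483 CPM in wild type. Its 149 counts against 6 gave a ratio of 37.8 (16.9 to 105). GH1 lies on hg19 chr17:61994553-61996212 in a cluster of near-identical copies, so its counts are uncertain. The copy GH2 averaged 0.511 CPM with ZIC2 and 0.322 CPM in the knockout, and CSH1 and CSH2 averaged 0.125 and 0.215 CPM with ZIC2, and 0.0958 and 0.156 CPM in the knockout. None of these copies came near the level of GH1 in the cells with ZIC2.

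Other receptors covered a wide range of functions. BDKRB2, the bradykinin receptor, had 1.94, 1.37 and 1.40 CPM with ZIC2 and 0.207, 0.103 and 0.277 CPM in the knockout. FIBCD1, a membrane receptor that binds acetylated sugars such as chitin, had 9.62, 9.40 and 7.74 CPM with ZIC2, 1.66, 2.58 and 2.31 CPM in the knockout, and 1.86, 1.78 and 1.45 CPM in wild type. NGFR, the low-affinity neurotrophin receptor found on neural crest cells, had 17.1, 16.4 and 14.9 CPM with ZIC2, 6.97, 6.51 and 6.42 CPM in the knockout, and 5.47, 7.40 and 6.28 CPM in wild type. For these receptors the knockout and wild type libraries lay near each other and only the ZIC2 libraries stood apart. UNC5C, a netrin receptor that mediates repulsion of axons, differed in this respect. It had 7.08, 7.38 and 8.32 CPM with ZIC2, 3.22, 3.67 and 4.43 CPM in the knockout, and 4.83, 4.92 and 5.07 CPM in wild type, so the knockout lay below wild type without overlap. The 14 genes classed as receptors had folds from 2.01 to 38.2, with a median of 2.86. DRD2, a dopamine receptor, CNTFR, the receptor for ciliary neurotrophic factor, and ACKR3, an atypical chemokine receptor, are further examples, chosen after their values were seen. They averaged 2.49, 3.44 and 2.27 times their knockout means.

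Among secreted products, CHGA was the most abundant gene of the group. CHGA, chromogranin A, is a core protein of the dense granules of neuroendocrine cells. It had 119, 112 and 109 CPM with ZIC2, 27.1, 33.6 and 33.4 CPM in the knockout, 88.7, 91.4 and 87.5 CPM in ZNF263 OE, and 82.0, 87.0 and 77.9 CPM in wild type. The knockout libraries were lowest by a wide margin, and the libraries with ZIC2 were above all others. Per kilobase of annotated exons CHGA also led, at 55.4 CPM per kb with ZIC2, followed by ASS1 at 33.0 and PPP1R1B at 16.4 CPM per kb, where the median of the group was 0.780 CPM per kb. GDF15, a stress-responsive ligand of the TGF-beta superfamily, had 11.8, 10.2 and 9.43 CPM with ZIC2, 4.05, 5.99 and 5.54 CPM in the knockout, and 4.72, 3.78 and 4.44 CPM in wild type. Its knockout and wild type libraries overlapped. SCG2, a granin like CHGA, had 1.79, 1.75 and 1.69 CPM with ZIC2, 0.713, 0.878 and 0.923 CPM in the knockout, and 1.75, 2.38 and 2.42 CPM in wild type, so ZIC2 took it no higher than wild type. PDYN, the precursor of dynorphin peptides, FGF18, a fibroblast growth factor, and SCUBE3, a secreted protein with EGF repeats, were also in the group, and the 9 secreted products had folds from 2.02 to 29.2.

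**Figure D2:**
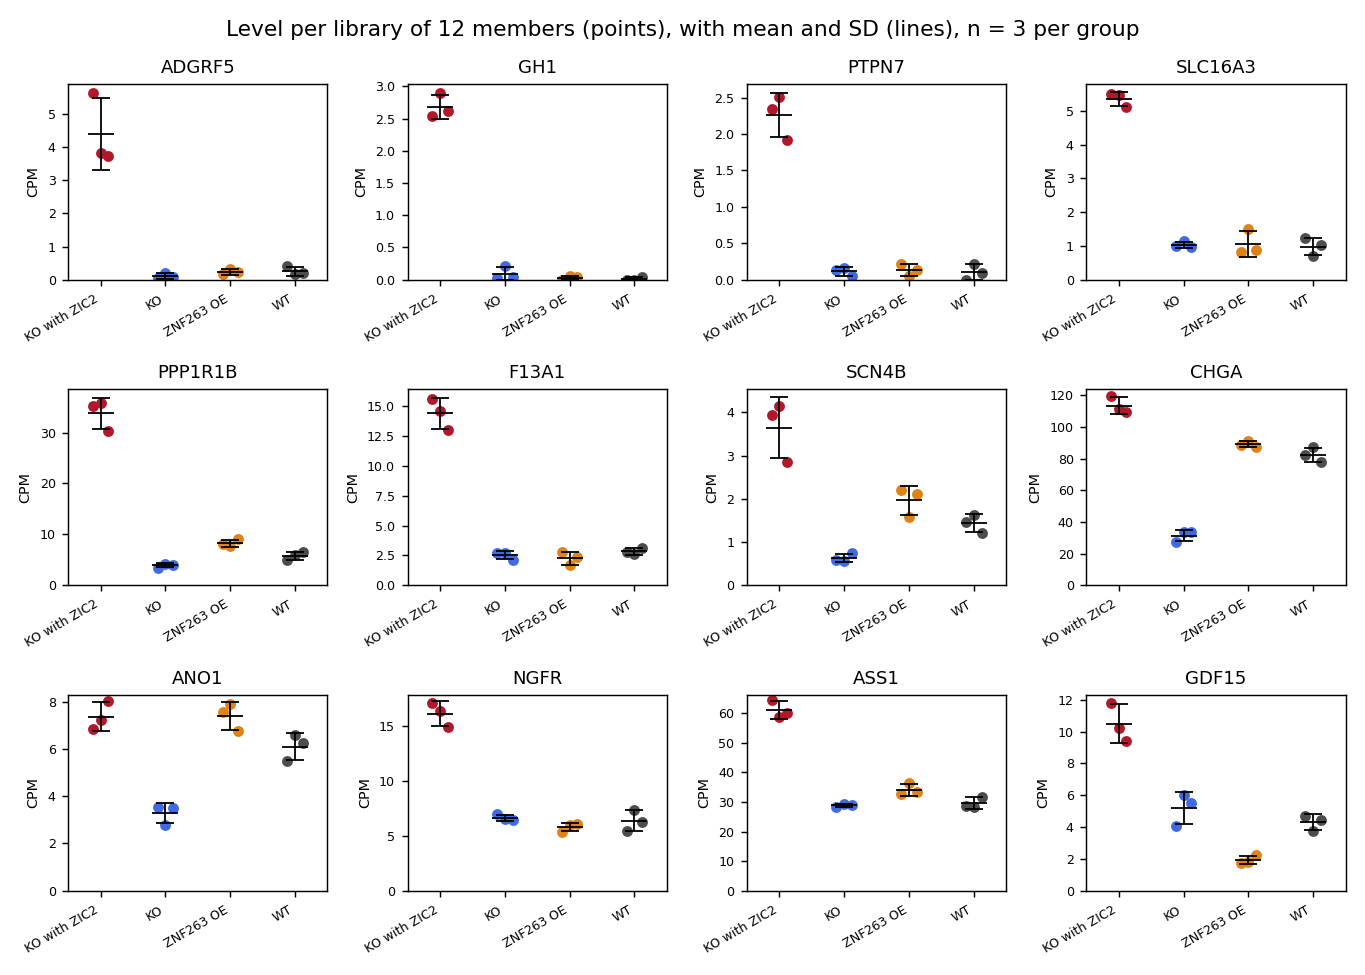
Level in CPM of 12 genes of the group in every library, with axes from 0; points are libraries and lines are mean and SD over 3 libraries of a group. ADGRF5, GH1 and PTPN7 are near 0 outside the ZIC2 cells, CHGA and ANO1 are lowest in the knockout, and GDF15 is lowest in ZNF263 OE, at 1.76 to 2.25 CPM.

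PPP1R1B combined a high level with a large fold. It encodes DARPP-32, an inhibitor of protein phosphatase 1 that relays dopamine signals in striatal neurons. It had 35.3, 35.8 and 30.2 CPM with ZIC2, 3.45, 4.24 and 4.06 CPM in the knockout, and 5.01, 5.89 and 6.57 CPM in wild type. The mean was 33.8 ± 3.1 CPM with ZIC2 and 3.92 ± 0.41 CPM in the knockout (SD, n = 3 each), and the ratio over counts was 8.94 (7.94 to 10.1). RRAD, a Ras-related GTPase that restrains calcium channels, had 1.79, 1.37 and 1.16 CPM with ZIC2 and 0.138, 0.258 and 0.138 CPM in the knockout. PPM1J, a protein phosphatase of the PPM family, had 18.9, 22.4 and 18.1 CPM with ZIC2, 8.51, 10.2 and 8.40 CPM in the knockout, and 8.03, 7.51 and 8.11 CPM in wild type. For PPM1J the knockout also lay above wild type, by a narrow gap. The 14 genes of intracellular signalling had folds from 2.05 to 20.0 with a median of 3.42. Among the 6 metabolic enzymes, ASS1, which makes argininosuccinate in arginine synthesis, had 64.5, 58.6 and 60.0 CPM with ZIC2, 28.3, 29.3 and 28.9 CPM in the knockout, and 28.8, 28.4 and 31.8 CPM in wild type. Its knockout and wild type libraries were at the same level to within their spread, and its mean with ZIC2 was 2.06 times the wild type mean.

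Ion channels and transporters numbered 16, with folds from 2.00 to 7.97. SCN4B, a beta subunit of sodium channels, had 3.94, 4.15 and 2.85 CPM with ZIC2, 0.575, 0.568 and 0.739 CPM in the knockout, and 1.46, 1.62 and 1.21 CPM in wild type. It was lower in the knockout than in wild type in all libraries and higher with ZIC2 than in either. ANO1, a chloride channel opened by calcium, had 6.83, 7.21 and 8.03 CPM with ZIC2, 3.52, 2.79 and 3.51 CPM in the knockout, and 5.47, 6.59 and 6.23 CPM in wild type, and its libraries with ZIC2 were 1.21 times the wild type mean. GJB6, the gap junction protein connexin 30, had 1.35, 1.37 and 0.640 CPM with ZIC2 and 0.138, 0.0517 and 0.231 CPM in the knockout. SLC16A3, which exports lactate, had 5.48, 5.46 and 5.12 CPM with ZIC2, 1.01, 1.14 and 0.969 CPM in the knockout, and 1.22, 0.702 and 1.01 CPM in wild type. SLC37A2, a sugar phosphate exchanger, had 4.24, 3.93 and 4.36 CPM with ZIC2 and 0.920, 0.981 and 1.06 CPM in the knockout. For SLC16A3 the knockout and wild type libraries overlapped, while for SLC37A2 those of wild type, at 1.16, 1.30 and 1.59 CPM, lay a little above the knockout. SLC16A12, chosen after its values were seen, was the only gene of the 123 whose libraries with ZIC2 all lay below wild type, with 3.34, 2.19 and 3.08 CPM against 3.61, 3.67 and 3.38 CPM. Its knockout libraries held 1.20, 1.55 and 1.25 CPM. TMC8 had 2.74, 1.26 and 1.05 CPM with ZIC2 and 0.943, 0.930 and 0.646 CPM in the knockout, and replicate 1 held by far the highest value. The TMC8 exons overlap those of TMC6 on the opposite strand, which had 47.2 CPM with ZIC2 and 31.2 CPM in the knockout, so the TMC8 counts are uncertain.

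Adhesion, matrix and ectoenzyme genes were the most numerous class, with 22 genes. F13A1, the A subunit of clotting factor XIII, which cross-links fibrin, had 15.6, 14.6 and 13 CPM with ZIC2, 2.67, 2.74 and 2.12 CPM in the knockout, and 2.79, 2.59 and 3.14 CPM in wild type. CDH5, the cadherin of endothelial junctions, had 2.49, 2.24 and 2.5 CPM with ZIC2, 0.575, 0.517 and 0.415 CPM in the knockout, and 0.932, 0.919 and 1.35 CPM in wild type. FAT2, a giant atypical cadherin, had 5.78, 5.52 and 4.95 CPM with ZIC2, and 1.45, 0.723 and 1.57 CPM in the knockout. In each of these the libraries with ZIC2 stood above wild type without overlap. LRRC15, a membrane protein with leucine-rich repeats, had 1.84, 2.19 and 1.98 CPM with ZIC2 and 0.276, 0.258 and 0.185 CPM in the knockout. CDH23, a cadherin of the tip links of hair cells, had 5.18, 4.26 and 4.48 CPM with ZIC2 and 2.39, 2.07 and 2.08 CPM in the knockout, and its exons overlap C10orf105 on the opposite strand, so its counts are uncertain. Among genes of muscle and cytoskeleton, STMN2, a microtubule-destabilising protein of growing axons, had 2.49, 4.10 and 3.14 CPM with ZIC2 and 0.621, 0.981 and 1.11 CPM in the knockout. MYLK3 and DES, a kinase of cardiac myosin and the muscle filament desmin, were 4.82-fold and 3.62-fold higher, and MYO7A, a myosin of hair cells, was 3.60-fold higher. Of the 12 genes in this class, 9 were under 1 CPM in wild type. IER5L, related to an immediate early gene, led the 14 genes of transcription with 5.43, 5.52 and 4.07 CPM with ZIC2 and 0.851, 0.362 and 0.969 CPM in the knockout. LEF1, a factor of the WNT pathway, and EBF4 were 3.61-fold and 6.71-fold higher. TMEM132E, a membrane protein, had 3.49, 2.68 and 2.10 CPM with ZIC2 and 0.207, 0.362 and 0.508 CPM in the knockout.

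The wild type libraries took no part in choosing the genes beyond the division at 1 CPM, but the libraries they are compared with did, so their place is a description. With ZIC2, 106 of the 123 genes lay above wild type without overlap of the libraries, 16 overlapped and 1 lay below. Over all 15437 genes that passed the expression filter, as all 123 did, 21.6% lay above and 26.6% below in this comparison. In the knockout, 39 genes lay below wild type without overlap, 78 overlapped and 6 lay above, where 27.9% of all genes lay below and 19.7% above. The genes chosen were high with ZIC2 and low in the knockout by rule, so both counts lean by construction. DRD2, SPHK1 and PPM1J are examples of genes with the knockout above wild type.

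**Figure D3:**
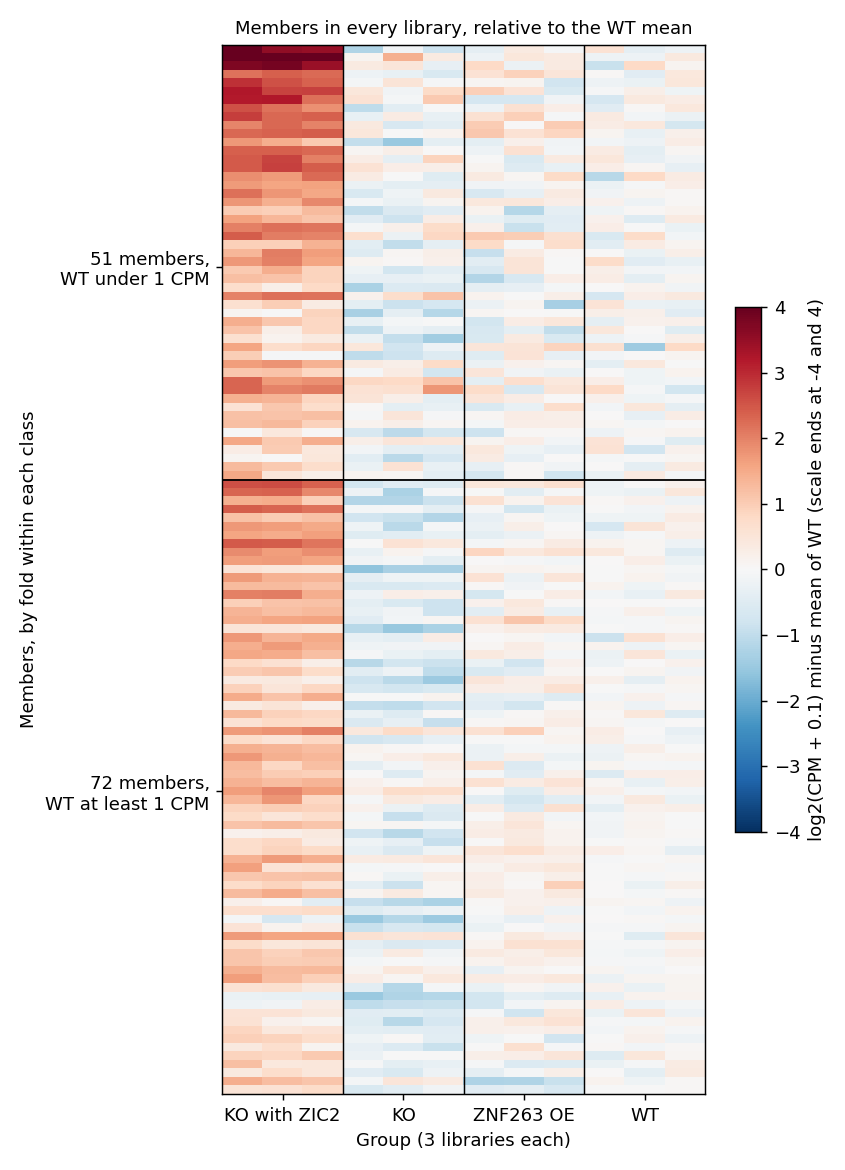
The 123 genes (rows, by fold within each class) in all 12 libraries (columns), as log2(CPM + 0.1) minus the mean of the wild type libraries. The 3 libraries with ZIC2 are red for most genes, with the strongest colour at the top among the 51 genes under 1 CPM in wild type, while blue in the knockout is more frequent among the 72 genes below the line.

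Overexpression of ZNF263 in cells that kept the gene is the only contrast here that shares no library with the choice of the whole group. ZNF263 had 251, 254 and 221 CPM in ZNF263 OE, against 41.0, 39.3 and 38.7 CPM in wild type. At an adjusted p under 0.05 (edgeR quasi-likelihood test, Benjamini-Hochberg over 15437 genes) none of the 123 genes was called higher and 1 lower, where 0.317% of all genes were called higher and 0.447% lower. The filter was run over all 4 groups, and some of the 123 genes passed it through the ZIC2 libraries while nearly empty here. GH1 held 2 counts over the ZNF263 OE libraries and 1 over wild type, and GJB6 held 1 and 4. Genes like these could hardly be called, yet they stand among the 123. At an unadjusted p under 0.05 there were 18 higher (14.6%) and 4 lower (3.25%), where 5.26% and 5.3% of all genes were, and the DESeq2 test called 1 higher. The median log2 fold change of the group was 0.04, with 69 genes above 0 and 54 below. Of the 123, 23 (18.7%) lay above wild type without overlap and 5 (4.07%) below, where 9.63% and 9.64% of all genes did. Of the 23 genes, 20 were among those at or above 1 CPM in wild type, a division that uses these same wild type libraries.

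The gene that fell was GDF15. It had 1.76, 1.79 and 2.25 CPM in ZNF263 OE, against 4.72, 3.78 and 4.44 CPM in wild type, with no overlap and a log2 fold change of -1.14 (SE 0.20, edgeR adjusted p = 0.00312). PPP1R1B had 8.05, 7.74 and 9.03 CPM in ZNF263 OE, against 5.01, 5.89 and 6.57 CPM in wild type, a log2 fold change of 0.50 (SE 0.12) that missed the threshold in the edgeR fit (adjusted p = 0.0551). It passed in the DESeq2 test (adjusted p = 0.0214) and in the edgeR fit to these 6 libraries alone (adjusted p = 0.00638). CNTFR had 1.93, 2.75 and 2.16 CPM in ZNF263 OE, against 1.16, 1.19 and 1.35 CPM in wild type, a log2 fold change of 0.87 (SE 0.21, edgeR adjusted p = 0.0574). UNC5C had 3.58, 3.81 and 3.16 CPM, against 4.83, 4.92 and 5.07 CPM, a log2 fold change of -0.50 (SE 0.14, edgeR adjusted p = 0.119) that passed in the fit to these 6 libraries alone (adjusted p = 0.0385). ADGRF5, GH1 and PTPN7, the 3 genes with the largest folds under ZIC2, overlapped with wild type here. ADGRF5 had 0.165, 0.336 and 0.229 CPM in ZNF263 OE, against 0.408, 0.162 and 0.193 CPM in wild type. PTPN7 had 0.220, 0.0561 and 0.138 CPM in ZNF263 OE, against 0, 0.216 and 0.0966 CPM in wild type.

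**Figure D4:**
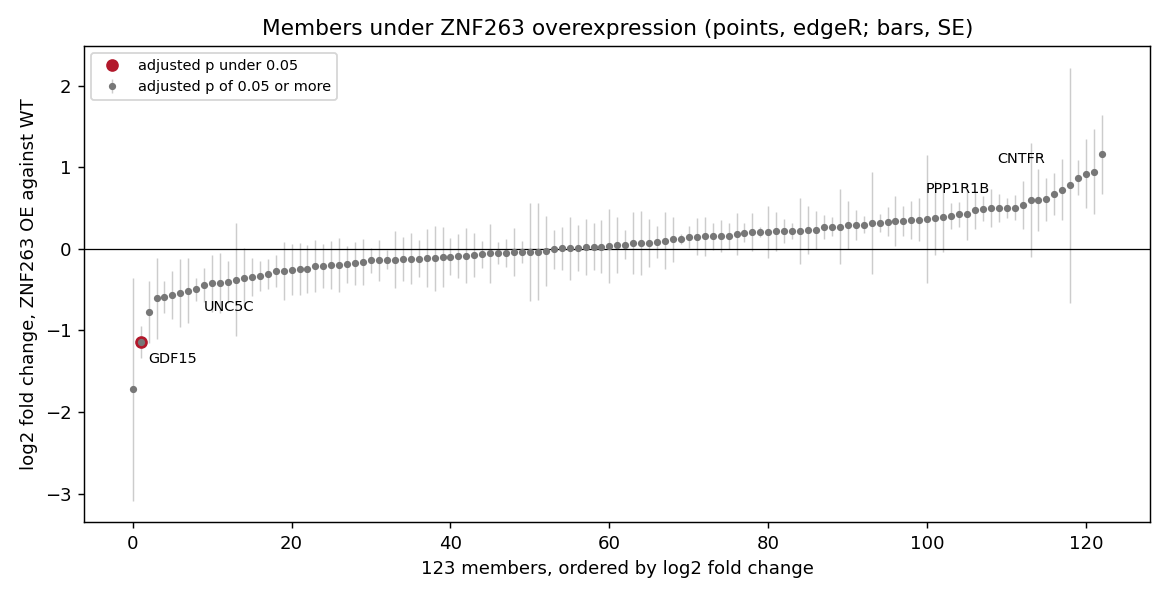
Log2 fold change, ZNF263 OE against wild type, of the 123 genes in rising order, as points with SE bars from the edgeR fit. GDF15 alone is marked as called, at -1.14, and the wide bars belong to genes with few counts, such as GJB6 at the left end.

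Lists of pathway and cell type genes were read for the relatives of the group in the contrast of knockout with ZIC2 against knockout. Since the 123 genes were chosen in this contrast, the counts of calls given here leave them out. ZIC2 and the other genes set aside by symbol met the same conditions but were not left out. Of the 15314 tested genes outside the group, 4.26% were called higher and 3.38% lower (edgeR adjusted p under 0.05). Over 39 lists together, 152 of 1473 such genes rose, ZIC2 itself among them, and 116 fell, and 37 of the 123 genes stood on a list. The ion channel list holds 7 of the 123, among them ANO1, KCNE3, KCNN3 and SCN4B, and of its 144 other genes 8 rose and 8 fell. The solute carriers hold 4 of the 123, and of 247 others 22 rose and 8 fell. The cadherins hold CDH5, CDH23 and FAT2, and of 27 others 3 rose and 4 fell. Those that rose were CDH1, CDH4 and CDH6, and those that fell were CDH2, CDH3, CDH8 and CDHR1. As examples, CDH1 rose with a log2 fold change of 0.28 (SE 0.04), and CDH2 fell by 0.16 (SE 0.04). The hedgehog list holds GAS1, a coreceptor for hedgehog ligands, and SCUBE3. Of its 15 other genes 2 rose and none fell, with a median log2 fold change of -0.02 over the 15. The genes that rose were BOC, another coreceptor (log2 fold change 0.83, SE 0.11, edgeR adjusted p = 1.16e-05), and SUFU, an inhibitor of GLI factors. The list of WNT feedback holds APCDD1 and LEF1, and of 23 others the antagonists FRZB and SFRP1 rose and LGR4 fell. The lists were drawn up with earlier results of these data known.

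Lists with none of the 123 genes moved too, in both directions. Those described here are examples, and others were balanced. Of 19 NOTCH genes 2 rose and 2 fell, and of 37 bHLH factors 3 rose and 3 fell. Of 18 integrated stress response genes 6 rose and none fell, with a median log2 fold change of 0.13. Of 10 trophoblast and amnion genes 4 rose and 1 fell, with a median of 0.18. Of 7 endoderm genes none rose and 2 fell, with a median of -0.30. Of 13 retinoic acid genes 5 rose and none fell, with a median log2 fold change of 0.15. CRABP1 and CRABP2, which carry retinoic acid in the cell, rose with log2 fold changes of 0.73 (SE 0.06) and 0.84 (SE 0.06), and STRA6, the receptor for retinol uptake, with 0.93 (SE 0.08). Of 16 pluripotency genes none rose and 7 fell, with a median of -0.10. These were DPPA2, DPPA4, GDF3, LIN28A, NANOG, TERF1 and UTF1, and NANOG fell by 0.20 (SE 0.05, edgeR adjusted p = 0.0170). The summed pluripotency list was 8989 to 9268 CPM with ZIC2 and 9548 to 9694 CPM in the knockout.

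Genes that mark other cell types were in the group in small numbers. The neuronal list holds CHGA, SCG2 and STMN2, and of its 28 other genes 3 rose, among them MAP2 and NRXN2, and 4 fell, among them NEFL. That list summed to 2604 to 2654 CPM with ZIC2 and 2531 to 2586 CPM in the knockout. All sums in this paragraph include the genes of the group, which were chosen in this contrast. CHGA alone averaged 113 CPM with ZIC2 and 31.4 CPM in the knockout, so the neuronal sum cannot be read apart from the rule. The endothelial and blood list holds CDH5 and VWF, the von Willebrand factor of endothelium, and of its 6 other tested genes ERG rose and none fell. It summed to 75.7 to 80.5 CPM with ZIC2 and 65.9 to 68.9 CPM in the knockout, and its largest part was TEK at 59.5 CPM with ZIC2 and 53.2 CPM in the knockout. Part of the difference was CDH5, at 2.41 against 0.502 CPM, and VWF, at 2.95 against 0.851 CPM, both chosen by the rule. The muscle list holds DES, and of its 15 other genes none rose, while ACTA1 and ACTC1 fell by 0.65 (SE 0.07) and 0.37 (SE 0.06). It summed to 1227 to 1353 CPM with ZIC2 and 1221 to 1528 CPM in the knockout. The neural plate border and crest list holds NGFR, and of its 11 other genes CRABP1, SNAI1 and SOX9 rose and ETS1 fell. That list summed to 361 to 383 CPM with ZIC2 and 292 to 304 CPM in the knockout. The early neural list holds GBX2, and of its 16 other genes OTX2 rose and none fell. The mesoderm list holds EOMES, and of its 7 other genes SNAI1 rose and KDR fell. In these bulk libraries a change in the share of a cell type and a change of RNA per cell cannot be told apart, and the part of other cell types in these results was not tested.

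By position in hg19, 21 of the 123 genes (17.1%) lie on chromosome 17, which holds 6.05% of the genes with at least 1 CPM, a count made after the values were seen. Of the 880 tested genes of chromosome 17 outside the group, 6.02% were called higher with ZIC2, against 4.26% of such genes over all chromosomes. By chromosome this share ran from 2.63% (chromosome 19) to 6.07% (chromosome 15, which holds 2 of the 123 genes). Of all tested genes of chromosome 17, 1.66% were called lower, the lowest share of the chromosomes counted. That share was 4.09% on chromosome 15 and 3.35% over all chromosomes. The cause of this balance on chromosome 17 was not tested. Chromosome 7 held none of the 123 genes, with 4.8% of the genes with at least 1 CPM. There were 10 pairs of genes of the group within 200 kb of each other, and the number in other sets of 123 genes was not counted. KLK5 and KLK6, secreted proteases of the kallikrein cluster, lie 5543 bases apart on chromosome 19, and GFY and SLC17A7 lie 580 bases apart. PPP1R1B and PNMT, which makes adrenaline, lie 31356 bases apart on chromosome 17. STARD3 between them had a log2 fold change of 0.14 (SE 0.05, edgeR adjusted p = 0.0567). TCAP, also between them, averaged 0.397 CPM with ZIC2 and 0.182 CPM in the knockout and was not among the genes tested. GH1 and CD79B, a subunit of the B cell receptor, lie 9884 bases apart. S100A14 and S100A1, calcium-binding proteins, have S100A13 between them, which rose by 0.39 (SE 0.07, edgeR adjusted p = 0.000598) and whose exons overlap S100A1. In all, 17 of the 123 genes have an exon that overlaps another gene, and for 7 of them the other gene held more counts over the 12 libraries, so their levels are uncertain. These 7 are SAMD14, ATP2A1, TNRC6C-AS1, S100A1, LOC100506639, ENTPD3 and TMC8. NGFR, CDH23, SLC16A12, TRPV4 and LEF1 are among the others, and the partner of NGFR held 19 counts where NGFR held 2166.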

How the data were processed

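For 12 libraries of H1 cells the authors deposited raw gene counts in whole numbers, without normalization. The submitters' processing notes name STAR, featureCounts, DESeq2 and hg19, with no versions or settings. Per the file headers, the alignment files counted hold unique reads, which lowers genes with near-identical copies. Per the labels' protocols, the kit was NEBNext Ultra II RNA, which does not mark strand, so overlapping genes on opposite strands cannot be separated.

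CPM is counts divided by library totals (17175183 to 43464609), and intervals on pooled counts are exact and cover counting error only. All 12 libraries entered 1 fit of edgeR 4.0.16 in R 4.3.3 (TMM factors, filterByExpr, quasi-likelihood test, group as the only term), in which 15437 genes were tested. P-values got Benjamini-Hochberg adjustment over all of them and genes were called under 0.05. The procedure was tested on simulated data in which the same spread was set for all genes. Recovery among genes as low as most of the group was not counted apart. Fold changes under edgeR use TMM factors, while CPM values and folds of mean CPM use library totals. Genes that are named had the 8 largest folds in each class, the 6 highest levels, a call in ZNF263 OE against wild type, the 2 highest levels in a list with at least 3 genes of the group, or a place at the threshold; others were chosen after their values were seen. Some genes that this rule names are not reported here.

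The genes and the lists were chosen with earlier results of these data known, and genes were sorted into functional classes after their values were seen. Alternatives were DESeq2 1.42.0 and its size factors, no filter, 6 libraries only, a replicate block, other cuts of the rule and each library left out. Separate cultures for the 3 libraries of a group are not stated in the sources used here, so p-values measure only the spread between these libraries, which may be technical.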

Additional observations from a re-analysis of the deposited data

How the results depend on the processing

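The rule gave 123 genes, and 81 with a minimum of 2 CPM, 327 with a minimum fold of 1.5 and 49 with a minimum fold of 3. TMM-scaled totals gave 124, and leaving out 1 library gave 119 to 140. The class under 1 CPM in wild type held 51 genes, and 111 with a minimum of 0.5 CPM, 15 with 2 CPM, 81 with a fold of 1.5 and 27 with a fold of 3, and 50 to 65 without 1 library. The share of re-chosen genes that reached 2-fold in left-out libraries was 65.2% to 66.4%. In ZNF263 OE against wild type no gene was called higher, but DESeq2 called 1, the fit with no filter 2 and the fit to 6 libraries 4, which also called 2 lower. Leaving out 1 library gave 0 higher and 1 lower each time. The median log2 fold change there was 0.0410 to 0.103 without 1 library, with the 0.103 arising without ZNF263 OE replicate 1. The listed genes that rose with ZIC2, those of the group included, numbered 188, and 131 to 197 without 1 library, and those that fell 116, and 72 to 136 without 1 library, with 72 and 77 without replicates 1 and 2 of the ZIC2 cells. The fit to 6 libraries called 68 listed genes lower. Genes of the group were chosen in this contrast, so their calls in these counts say nothing beyond the rule. With the replicate number as a block, 0 of the 123 genes were called higher and 1 lower in ZNF263 OE, with a median of 0.0412, and 183 listed genes rose and 115 fell with ZIC2. For ZNF263 OE and wild type, same-number correlations were -0.021 to 0.023, and those of other numbers -0.023 to 0.043. For the knockout with and without ZIC2 they were 0.0092 to 0.112, and those of other numbers -0.102 to 0.078. These values do not settle whether the numbers pair the libraries. The fit to fewer libraries or with no filter tests other genes; the cause of the other changes was not tested. Depth limits the genes near 0 outside the ZIC2 cells, whose ratios rest on 6 to 27 knockout counts.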

Other observations

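Within the cells with ZIC2, replicate 1 held the highest value for 60 of the 123 genes, replicate 2 for 42 and replicate 3 for 21. The same count over all genes was not made, and these libraries took part in choosing the 123 genes. ZIC2 itself was highest in replicate 1 (2190 CPM) and lowest in replicate 3 (1866 CPM). Any link between that level and the order of the group was not tested. The mitochondrial share of counts was 0.963% to 1.13% in the cells with ZIC2, 1.11% to 1.16% in the knockout, 1.36% to 1.44% in ZNF263 OE and 1.36% to 1.40% in wild type. The part of these differences in the levels of the group was not tested.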
